A study of Arabidopsis thaliana with 24 samples.

Results

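The genes described here are the well-expressed nuclear genes that were listed for roots and not for shoots of Arabidopsis thaliana seedlings. A gene was taken when its locus stood in the root table, did not stand in the shoot table and had a level of at least 20 CPM in control roots at 3 days, where CPM stands for counts scaled to library size. The genes were thus chosen by a measured value, the level in control roots at 3 days, and by their absence from the shoot table. There were 157 such genes, 9.01% of the 1742 nuclear loci found only in the root table, which holds 20336 genes in all. All 157 encode proteins in the reference annotation.

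Col-0 seedlings grew for 5 days on MS agar and were then moved to the same medium with 2 mM titanium from TiO2 nanopowder (Ti) or without it (Ctrl). Roots and shoots were collected 3 or 10 days later, and each sample pooled organs of 160 seedlings of this 1 wild-type accession. The 4 root groups are Ctrl-R-3D, Ti-R-3D, Ctrl-R-10D and Ti-R-10D, with 3 libraries each, and the 4 shoot groups decided only which genes were absent from the shoot table. The 3 columns of a group held the same number in every row, so a group has 1 fitted value per gene. No spread between replicates, and therefore no test, could be computed, and the read depth is not in the files. All differences below are descriptions of these fitted values, on the log2 scale unless a fold is named.

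Absence from the shoot table means that a gene did not pass the authors' filter on low CPM in shoots, not that its RNA was absent there. The shoot table does list genes whose highest group stood at 0.262 CPM, and 5% of its genes stayed under 0.888 CPM in every group. In RNA of whole roots, fewer cells of a type and less RNA per cell cannot be told apart.

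The root meets the soil through its epidermis, where some cells grow out into root hairs, long tubes that widen the absorbing surface. Their walls are built and loosened by extensins, expansins, arabinogalactan proteins and class III peroxidases. Extensins are rod-like wall glycoproteins in which a serine followed by several prolines is repeated many times, and peroxidases can cross-link them into a network through their tyrosines. Deeper in the root the endodermis seals its walls with the Casparian strip, and the outer tissues make coumarins and triterpenes that are released or stored against microbes and metal shortage.

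By their descriptions, 31 of the 157 genes encode extensins, proline-rich or other wall proteins, 7 belong to the lipid transfer and seed storage albumin family, and class III peroxidases, cytochrome P450s, transcription factors and glycosyl- or acyltransferases have 6 members each. Mannose-binding lectins have 6 members as well. Transporters and channels, with 2 members, and dirigent proteins, with 2, were few by this count of words in the descriptions. Genes described in other words were missed, such as AT3G45700, of the major facilitator transporters. None of the 25 root-only genes found by description words for small secreted peptides, such as defensin, reached 20 CPM. These words miss peptide genes described otherwise, such as RALFL32, described as ralf-like, at 67.0 CPM in Ctrl-R-3D. The other 78 genes fell in no family or list. Of 31 root hair genes taken from general knowledge, all in the root table, 27 were root-only and 16 were among the 157. Of the whole root table, 1742 of 20336 genes were nuclear and root-only. Of other lists, 10 of the 16 terpene genes in the root table, 3 of 10 Casparian strip genes and 4 of 26 nutrient uptake genes were root-only. For suberin it was 0 of 10 genes, for vascular tissue 0 of 8 and for photosynthesis 0 of 10. The 4 root-only genes of 5 root cap genes stayed under 20 CPM. These counts rest on the shoot filter, which genes of low level in shoots can pass, and do not measure how far the organs differed.

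The extensins are the family on which the comparisons below turn, and their coding sequences are shown for the repeats that define it. Capitals mark each serine codon followed by 4 proline codons, in frame, in 150 bases of coding sequence read 5′ to 3′ from the RefSeq annotation of TAIR10.1. The stretches lie at chr3:20203459-20203608, - strand (AT3G54580), chr2:10622633-10622782, + strand (EXT6), chr5:2041536-2041685, - strand (EXT10) and chr5:13434409-13434558, + strand (EXT13), all within an exon.
AT3G54580: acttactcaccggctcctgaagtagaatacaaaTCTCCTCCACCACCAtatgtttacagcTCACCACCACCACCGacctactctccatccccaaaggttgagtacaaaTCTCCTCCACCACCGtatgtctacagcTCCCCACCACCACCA
EXT6: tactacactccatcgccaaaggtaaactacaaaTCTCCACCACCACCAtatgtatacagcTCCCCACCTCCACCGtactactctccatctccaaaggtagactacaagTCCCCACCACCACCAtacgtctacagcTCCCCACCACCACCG
EXT10: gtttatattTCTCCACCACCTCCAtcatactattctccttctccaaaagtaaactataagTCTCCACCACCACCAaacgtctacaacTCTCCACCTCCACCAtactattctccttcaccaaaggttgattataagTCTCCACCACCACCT
EXT13: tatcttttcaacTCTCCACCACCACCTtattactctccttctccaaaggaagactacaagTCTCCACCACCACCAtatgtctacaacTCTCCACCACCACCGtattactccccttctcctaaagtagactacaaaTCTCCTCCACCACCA

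Each of these stretches holds 4 runs, with different codons spelling the same residues. Over its whole coding sequence AT3G54580 has 68 runs, which fill 35.5% of its 2874 coding bases. HRGP1 (AT3G54590), its neighbour on the chromosome, has 47, EXT10 has 42, AT4G08410 has 41, EXT6 has 37, AT4G08400 has 31, AT5G06630 has 29, EXT12 has 22 and EXT13 has 14. The only other gene of the 157 with at least 3 runs is LRX1, a leucine-rich repeat protein with an extensin end, which has 24. In the reference 44 of 27444 protein-coding nuclear genes (0.16%) have at least 3 runs, and 10 of the 157 (6.37%) do.

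At 3 days in control roots, the levels that chose the genes ran from 20.3 to 408 CPM with a median of 33.1 CPM. Most were modest, since 96 of the 157 lay between 20 and 40 CPM and 13 exceeded 100 CPM. Together they made up 0.7615% of all counts of the root table. Just inside the limit were MLO15 at 20.3 CPM and the lectin gene AT5G35940 at 20.4 CPM, and just outside it were RHS12, a root hair gene, and AT5G65690, a phosphoenolpyruvate carboxykinase gene, both at 19.9 CPM.

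AT3G54580 had the highest CPM in all 4 groups, at 408 CPM in Ctrl-R-3D, 309.8 in Ti-R-3D, and 183 in Ctrl-R-10D against 358 in Ti-R-10D. At 3 days the next were a pair of neighbouring genes for small lipid transfer-like proteins, AT4G12520 and AT4G12510. AT4G12520 stood at 219 CPM in Ctrl-R-3D, 217 in Ti-R-3D, and 125 in Ctrl-R-10D against 136 in Ti-R-10D. AT4G12510 stood at 205 CPM in Ctrl-R-3D, 200.2 in Ti-R-3D, and 105 in Ctrl-R-10D against 108 in Ti-R-10D. Both were at about the same level with and without Ti and lower at 10 than at 3 days. CPM are not divided by length, and AT3G54580 has a long transcript. Per kilobase of the reference transcript, AT4G12510 (254 CPM per kb) and AT4G12520 (249) came first in Ctrl-R-3D and AT3G54580 (122) was in place 10, so the small lipid transfer-like proteins led the set on that scale.

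**Figure D1:**
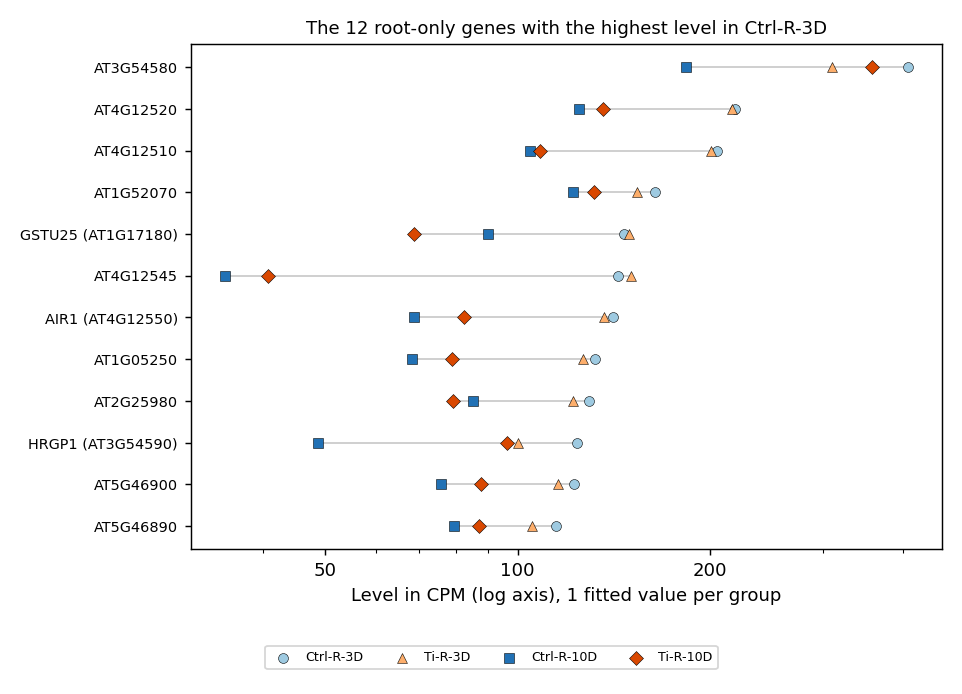
Levels of the 12 root-only genes with the highest CPM in Ctrl-R-3D. The horizontal axis gives CPM on a log axis, each symbol is the 1 fitted value of a root group and there are no error bars because the replicate columns were equal. For 11 of the 12 both 10-day symbols lie left of both 3-day symbols; in AT3G54580 the Ti-R-10D value of 358 CPM lies between its 2 values at 3 days.

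The other genes among the 12 highest were the lectin genes AT1G52070 (164 CPM in Ctrl-R-3D) and AT2G25980 (129), the glutathione transferase GSTU25 (147), which joins glutathione to reactive compounds, the lipid transfer-like genes AT4G12545 (144), AT5G46900 (123) and AT5G46890 (115), AIR1 (141), a gene first described as induced by auxin in root cultures, the peroxidase AT1G05250 (132) and HRGP1 (124). Several of these stand next to each other in the genome. Of the 157 genes, 21 lie in 10 runs of adjacent genes, and 6 runs consist of genes with the same description, such as the lectins AT1G52050, AT1G52060 and AT1G52070. Similar copies matter because reads were assigned to transcripts. Counting shared 31-base words, 70 genes share none with another locus and 21 share at least 20% with 1 other locus, among them AT4G12510 and AT4G12520, and AT4G08400 and AT4G08410. The split of reads within such pairs is uncertain.

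In 7 cases that partner was itself in the shoot table, and for AT1G23410, RALFL32 (AT4G14010), AT4G07408, AT4G02720 and AT5G58150 it contained 100% of their words. Their reads cannot be told apart from those of a locus that the shoot table does list. The other 2 were EXO70H2 (AT2G39380), with 95.5%, and AT1G14160, with 22.7%. The peroxidase AT1G05250 shares 100% of its words with AT1G05240, which the root table does not list. These genes stay in the counts, and the shares without all 21 genes are given with the alternatives.

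The first comparison asks how the root-only genes differed between young and older control roots. They were lower at 10 days as a set: the median log2 difference Ctrl-R-10D minus Ctrl-R-3D was -0.60 (quartiles -0.90 and -0.25, range -3.08 to 1.11), 130 of 157 were below 0, and their summed level was 5207 CPM against 7528 CPM. A difference beyond 1, which is 2-fold, was found toward lower values in 33 genes (21.0%), where 4.44% of the whole root table was as much lower. Toward higher values it was found in 2 genes (1.27%), against 4.8% of the table. The level in Ctrl-R-3D chose the genes and enters this difference. The 9668 nuclear genes that met the same limit of 20 CPM and were listed in both tissues had a median of 0.00, with 1.63% lower and 2.02% higher beyond 1.

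Wall genes made up more than any other family of the lower genes, 18 of 31 (median -1.07), where 4.44% of the root table was lower beyond 1. Among all 380 wall genes listed for roots, 60 were lower and 16 higher beyond 1 (median -0.25). All 9 extensins were lower beyond 1, with a median of -1.57. Among the 16 root hair genes 9 were lower beyond 1 and 16 were below 0 (median -1.10). Of these 9 genes 7 are extensins, and the others are LRX1 (-1.08) and RHS19 (-1.12). The expansins EXPA7 (-0.56) and EXPA18 (-0.81), which loosen the walls of root hair cells, differed less, as did SHV2 (-0.76), a membrane-anchored protein that root hairs need to grow at their tip.

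The largest differences lay outside the wall families. KIN1, a small hydrophilic protein known from cold and abscisic acid responses, stood at 58.4 CPM in Ctrl-R-3D, 41.5 in Ti-R-3D, and 6.91 in Ctrl-R-10D against 5.59 in Ti-R-10D, which is 8.46-fold lower at 10 days in control roots. AT2G16005, with a lipid recognition domain, stood at 59.0 CPM in Ctrl-R-3D, 63.0 in Ti-R-3D, and 8.98 in Ctrl-R-10D against 11.0 in Ti-R-10D. AT4G12545 of the lipid transfer family stood at 144 CPM in Ctrl-R-3D, 150.2 in Ti-R-3D, and 34.9 in Ctrl-R-10D against 40.7 in Ti-R-10D. In these 3 genes both 10-day groups were far below both 3-day groups, whatever the treatment. AT4G12545 shares at least 20% of its words with AIR1, so the split of their reads is uncertain. The sum of AT4G12545 and AIR1 differed less between the days, by -1.46 in control roots and -1.22 in Ti-treated roots. The pectin methylesterase inhibitor gene AT4G25250 (-1.70) and the expansin EXPA17 (-1.52) were next to the extensins in size.

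Higher levels at 10 days beyond 1 were found in AT1G77530 and CYP735A2. AT1G77530, an O-methyltransferase gene, stood at 69.2 CPM in Ctrl-R-3D, 83.2 in Ti-R-3D, and 149 in Ctrl-R-10D against 113 in Ti-R-10D. CYP735A2, which makes the trans-zeatin form of cytokinins, stood at 21.8 CPM in Ctrl-R-3D, 28.3 in Ti-R-3D, and 46.2 in Ctrl-R-10D against 22.5 in Ti-R-10D. The control at 10 days is the highest of the 4 groups in both genes. Close behind were AT5G43520 (0.99), DGR1 (0.85), EXO70H2 (0.75), AT4G07408 (0.71) and the transcription factor gene AT4G25400 (0.63). The near copies BGLU34 (0.53) and BGLU35 (0.56), root myrosinases that cleave glucosinolates, and RALFL32 (0.46) followed. The sum of AT4G07408 with AT4G07410, the locus that shares its words, differed by 0.16. That of RALFL32 with AT4G14000 differed by 0.39. BGLU34 and BGLU35 share 48.2% and 46.0% of their words with each other, and their sum differed by 0.55.

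**Figure D2:**
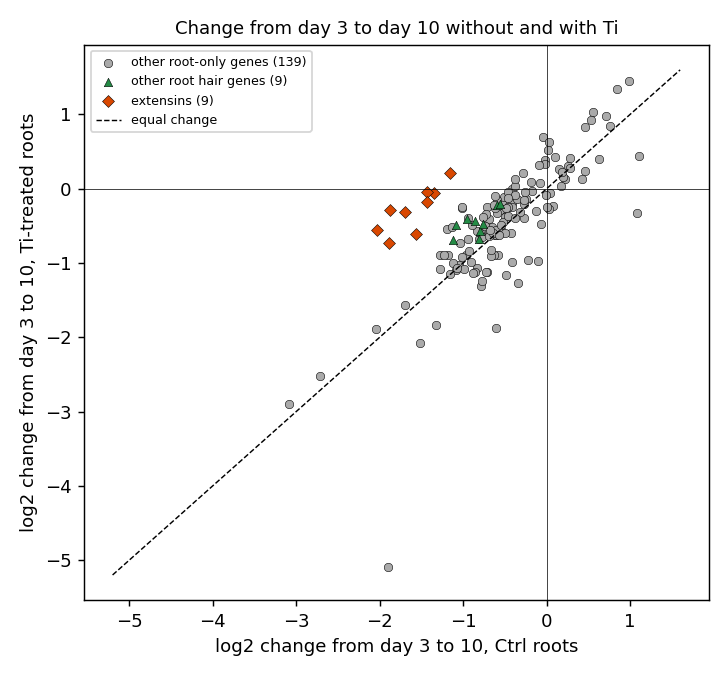
Log2 difference between day 10 and day 3 in control roots (horizontal axis) and in Ti-treated roots (vertical axis) for the 157 root-only genes, 1 point per gene. The 9 extensins (orange diamonds) lie between -2.03 and -1.15 on the horizontal axis and between -0.73 and 0.21 on the vertical axis, all above the dashed line of equal change; AT2G22590 is the lone point at -5.09.

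The same interval in Ti-treated roots uses none of the values that set the level limit. There the median was -0.39 (range -5.09 to 1.46) with 125 of 157 genes below 0, and 23 genes (14.6%) were lower beyond 1, against 5.14% of the root table and 2.51% of the genes listed in both tissues. Higher beyond 1 were 3 genes (1.91%, against 6.5% and 3.29%), AT5G43520 (1.46), DGR1 (1.35) and BGLU35 (1.03). The lower level of the set at 10 days was seen with and without Ti. Ti-R-3D lay close to Ctrl-R-3D (median difference -0.06), so the choice of genes by level at 3 days may bear on both intervals. The extensins and root hair genes differed in size between the treatments: 0 of 9 extensins and 0 of 16 root hair genes were lower beyond 1 in Ti-treated roots, with medians of -0.29 and -0.45. KIN1 (-2.89), AT2G16005 (-2.52), AT4G12545 (-1.88) and EXPA17 (-2.08) were lower in treated roots too.

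The next comparison is the effect of Ti within each day. At 3 days it was small in these genes: Ti-R-3D minus Ctrl-R-3D had a median of -0.06 and a range of -0.49 to 0.65. Lower beyond 0.2, the limit used for calls of a Ti effect, were 20 genes (12.7%, against 8.38% of the root table and 1.58% of the genes listed in both tissues). Higher beyond 0.2, which is 14.9% more, were 9 genes (5.73%, against 8.51% and 1.37%). Beyond 0.5 on the low side were 0 genes (against 1.78% of the root table and 0.0414% of the genes listed in both tissues), and on the high side 3 (against 2.3% and 0.0517%). Ctrl-R-3D, which chose the genes, enters this difference too, so nothing is read from these shares against the root table. Of the 20 lower genes 13 encode wall proteins, 7 of them extensins.

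The 3 genes highest over control at 3 days have roles in oxidation or metal handling. The paper tested the replicates and names the root genes that it called with Ti at 3 days. None of these 3 genes, and no other gene of the set, is among those named, so the values here are descriptions only. The peroxidase AT1G49570 stood at 41.8 CPM in Ctrl-R-3D, 65.5 in Ti-R-3D, and 44.2 in Ctrl-R-10D against 55.6 in Ti-R-10D. CYP82C4, which hydroxylates a coumarin that roots release when iron is short, stood at 46.4 CPM in Ctrl-R-3D, 68.8 in Ti-R-3D, and 34.8 in Ctrl-R-10D against 68.3 in Ti-R-10D. NAS2, which makes the metal chelator nicotianamine, stood at 21.9 CPM in Ctrl-R-3D, 31.8 in Ti-R-3D, and 12.9 in Ctrl-R-10D against 13.4 in Ti-R-10D. AT1G49570 and CYP82C4 were above their controls at both days, and NAS2 at 3 days alone, with 10-day values of 12.9 and 13.4 CPM. On the low side were KIN1 (-0.49), AT3G54580 (-0.40) and the pectin lyase-like gene AT1G05660 (-0.36).

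At 10 days the differences with Ti were wider and mostly upward. Ti-R-10D minus Ctrl-R-10D had a median of 0.11 and a range of -2.80 to 1.31, with 103 genes above 0. Higher beyond 0.2 were 57 genes (36.3%), against 23.7% of the root table and 18.6% of the genes listed in both tissues. Lower were 27 genes (17.2%), against 22.3% and 19.7%. Beyond 0.5 these counts were 17 (10.8%, against 6.25% of the root table and 2.18% of the genes listed in both tissues) and 11 (7.01%, against 5.7% and 3.36%). Neither value of this difference set the level limit, but Ctrl-R-10D also enters the difference between the days in control roots, so a low value there lowers one and raises the other.

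**Figure D3:**
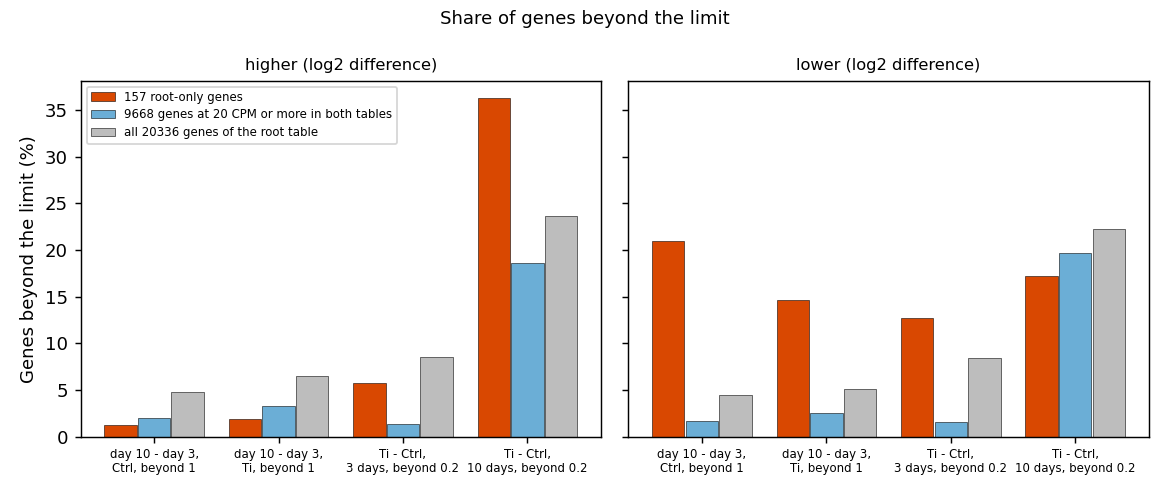
Share of genes beyond the limit, in percent, for the 157 root-only genes, the genes at 20 CPM or more listed in both tissues and the whole root table, with higher values on the left panel and lower values on the right. The root-only genes have the tallest bar for lower values at 10 days in control roots (21.0%) and for higher values with Ti at 10 days (36.3%).

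The extensins led the upward side. All 9 were higher with Ti at 10 days, by 0.82 to 1.31 (median 1.09), and their summed level was 655 CPM against 329 CPM in the 10-day control, beside 851 CPM in Ctrl-R-3D and 678 CPM in Ti-R-3D. EXT6 stood at 39.3 CPM in Ctrl-R-3D, 32.5 in Ti-R-3D, and 10.7 in Ctrl-R-10D against 26.6 in Ti-R-10D, a 2.48-fold difference between treatments at 10 days. EXT10 stood at 64.7 CPM in Ctrl-R-3D, 53.5 in Ti-R-3D, and 15.8 in Ctrl-R-10D against 36.2 in Ti-R-10D. HRGP1 stood at 124 CPM in Ctrl-R-3D, 100 in Ti-R-3D, and 48.7 in Ctrl-R-10D against 96.2 in Ti-R-10D. In each of the 9 the 10-day control was the lowest of the 4 groups and Ctrl-R-3D the highest. AT3G54580 shows this at the highest level, with 183 CPM in Ctrl-R-10D and 309.8 to 408 CPM in the rest. AT4G08400 and AT4G08410 share 59.4% and 49.0% of their words with each other, and their sum was 1.09 higher with Ti, as AT4G08400 was alone.

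**Figure D4:**
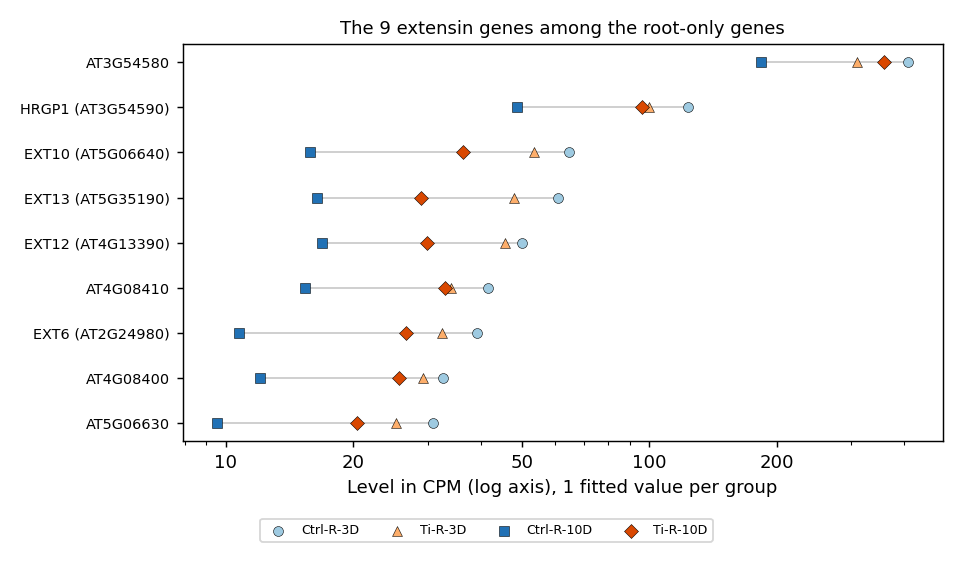
Levels of the 9 extensin genes in CPM (log axis), with 1 fitted value per root group and no error bars. In every row the Ctrl-R-10D square is at the far left, the Ctrl-R-3D circle at the far right, and the Ti-R-10D diamond lies well to the right of the square, as in EXT6 with 26.6 against 10.7 CPM.

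The serine-proline runs offer a grouping by sequence that used no level. Beside the 10 genes above, 26 more genes with at least 3 runs were in the root table, 23 of them listed in shoots too. With Ti at 10 days 20 of these 26 were higher beyond 0.2 and 0 were lower (median 0.58, range -0.18 to 2.16), and with the 10 it was 30 of 36, against 23.7% of all genes in the table. EXT3, an extensin of many organs, stood at 4720.2 CPM in Ctrl-R-3D, 4897 in Ti-R-3D, and 1430.3 in Ctrl-R-10D against 3030.2 in Ti-R-10D. AT2G43150, another extensin-like gene, stood at 4082 CPM in Ctrl-R-3D, 3802 in Ti-R-3D, and 2244 in Ctrl-R-10D against 4410 in Ti-R-10D. Both have 10-day controls below the other 3 groups, as the root-only extensins do. From day 3 to day 10 in control roots 8 of the 26 were lower beyond 1, and 0 were higher. The grouping was made after the extensins had been noticed among the 157 genes. A wider grouping by description, the 100 genes of the root table described as proline-rich extensins or hydroxyproline-rich glycoproteins, as the 9 extensins are, was less uniform. With Ti at 10 days 40 of these were higher and 20 lower (median 0.08), and between the days in control roots 17 were lower and 8 higher (median -0.12).

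The root hair genes were higher with Ti at 10 days in 12 of 16 cases, against 23.7% of the root table. In 16 of 16 their difference was above 0 (median 0.44), against 10649 of the 20336 genes of the root table. Leaving aside the 7 extensins, the differences were smaller. XTH14, an enzyme that cuts and rejoins xyloglucan chains, stood at 58.0 CPM in Ctrl-R-3D, 54.3 in Ti-R-3D, and 30 in Ctrl-R-10D against 40.8 in Ti-R-10D. LRX1, which acts in the walls of root hairs, stood at 39.8 CPM in Ctrl-R-3D, 35.8 in Ti-R-3D, and 18.8 in Ctrl-R-10D against 25.5 in Ti-R-10D. RHS19 stood at 46.9 CPM in Ctrl-R-3D, 46.1 in Ti-R-3D, and 21.6 in Ctrl-R-10D against 28.6 in Ti-R-10D. These 3 genes kept the order of the extensins in which the 10-day control was lowest, with differences of 0.44, 0.44 and 0.40. EXPA7 (0.13), EXPA18 (0.01), SHV2 (0.13) and the peroxidase AT4G26010 (0.15) stayed within 0.2. Over the whole list of 31 root hair genes, including those below 20 CPM, 23 were higher and 1 was lower, RSL4, a transcription factor that drives hair growth (9.28 CPM in Ctrl-R-3D, 7.09 in Ti-R-3D, and 6.91 in Ctrl-R-10D against 5.84 in Ti-R-10D).

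A short sequence named the root hair-specific cis-element is known upstream of hair genes and was searched on both strands in the 250 bases before each gene. It was found before 9 of the 157 genes (5.73%), before 4 of their 16 root hair genes (25%) and before 207 of 27443 protein-coding genes (0.754%). Among genes of the set that are neither root hair genes nor extensins it was found before 5 of 139 (3.6%). Because the element is known from hair genes, its share among the root hair genes is not an independent result. None of the 9 extensins had it in this window. The 4 root hair genes with a match are shown because they are the members in which sequence and list meet. Capitals mark the match, in the direction of the gene, read from TAIR10.1 at chr1:4276255-4276504, + strand (EXPA7), chr1:23331313-23331562, + strand (EXPA18), chr1:4069742-4069991, + strand (LRX1) and chr4:993040-993289, - strand (RHS13).
EXPA7: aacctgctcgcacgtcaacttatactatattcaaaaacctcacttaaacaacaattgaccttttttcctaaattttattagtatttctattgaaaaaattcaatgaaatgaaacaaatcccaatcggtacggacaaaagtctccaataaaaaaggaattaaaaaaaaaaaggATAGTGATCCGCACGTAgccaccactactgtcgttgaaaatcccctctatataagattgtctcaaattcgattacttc
EXPA18: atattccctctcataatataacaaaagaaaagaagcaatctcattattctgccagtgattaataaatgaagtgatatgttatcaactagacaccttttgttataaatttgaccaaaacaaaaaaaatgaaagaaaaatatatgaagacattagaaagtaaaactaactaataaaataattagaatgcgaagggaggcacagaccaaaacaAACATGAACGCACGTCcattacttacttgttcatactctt
LRX1: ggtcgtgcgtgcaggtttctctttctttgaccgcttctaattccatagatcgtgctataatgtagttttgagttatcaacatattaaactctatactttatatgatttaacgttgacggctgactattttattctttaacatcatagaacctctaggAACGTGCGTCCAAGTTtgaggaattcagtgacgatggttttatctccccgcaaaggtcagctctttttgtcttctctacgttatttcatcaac
RHS13: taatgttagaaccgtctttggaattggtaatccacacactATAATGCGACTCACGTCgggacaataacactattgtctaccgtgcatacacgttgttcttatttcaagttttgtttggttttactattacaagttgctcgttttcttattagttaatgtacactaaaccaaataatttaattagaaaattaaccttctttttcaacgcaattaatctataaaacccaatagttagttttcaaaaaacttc

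The matches begin 78 bases before the gene in EXPA7, 40 in EXPA18, 93 in LRX1 and 210 in RHS13, and in LRX1 it is on the opposite strand. With Ti at 10 days LRX1 (0.44) and RHS13 (0.25) were higher beyond 0.2 and EXPA7 and EXPA18 were not. The other 5 genes with a match were FUT6, AT3G09925, AT5G62340, HK5 and AT5G35940. A match is a description of the letters in this window and not of a bound factor.

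Peroxidases, which can cross-link extensins, had 5 of 6 genes in the set higher beyond 0.2 with Ti at 10 days (median 0.28), where 23.7% of the root table was higher. Among all 66 class III peroxidase genes listed for roots, 27 were higher and 14 lower (median 0.11). AT3G49960 stood at 25.3 CPM in Ctrl-R-3D, 25.2 in Ti-R-3D, and 11.5 in Ctrl-R-10D against 17.7 in Ti-R-10D. AT2G39040 stood at 31.4 CPM in Ctrl-R-3D, 31.9 in Ti-R-3D, and 13.3 in Ctrl-R-10D against 17.2 in Ti-R-10D. AT1G49570 was the exception in time, since it was higher with Ti at both days and had nearly equal controls (41.8 and 44.2 CPM). RBOHB, an oxidase that produces superoxide outside the cell, was 0.62 higher. CASP4 (0.31), a membrane protein that marks out the Casparian strip of the endodermis, was higher as well.

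The 6 P450 genes of the set were mixed at 10 days, with 3 higher and 2 lower. CYP82C4 was 0.97 higher at 10 days (1.96-fold), with nearly equal Ti values on both days. CYP702A5 stood at 30.6 CPM in Ctrl-R-3D, 33.9 in Ti-R-3D, and 29.7 in Ctrl-R-10D against 55.0 in Ti-R-10D, with the 10-day Ti roots above the other 3 groups. Further differences beyond 0.5 were found in AT5G04960 (0.67) and the kinase-like genes AT1G51840 (0.54) and AT5G24100 (0.52). AT5G04960 is described only as a member of the plant invertase/pectin methylesterase inhibitor superfamily. Another was AT3G05920 (0.52), described as a heavy metal transport or detoxification protein. F6'H1 (AT3G13610), an earlier enzyme of coumarin synthesis, stood at 113 CPM in Ctrl-R-3D, 128 in Ti-R-3D, and 68.7 in Ctrl-R-10D against 58.7 in Ti-R-10D. Its difference with Ti was 0.17 at 3 days and -0.23 at 10 days, so these 2 members of the nutrient list, the only 2 of 29 in the set, differed in direction at 10 days.

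**Figure D5:**
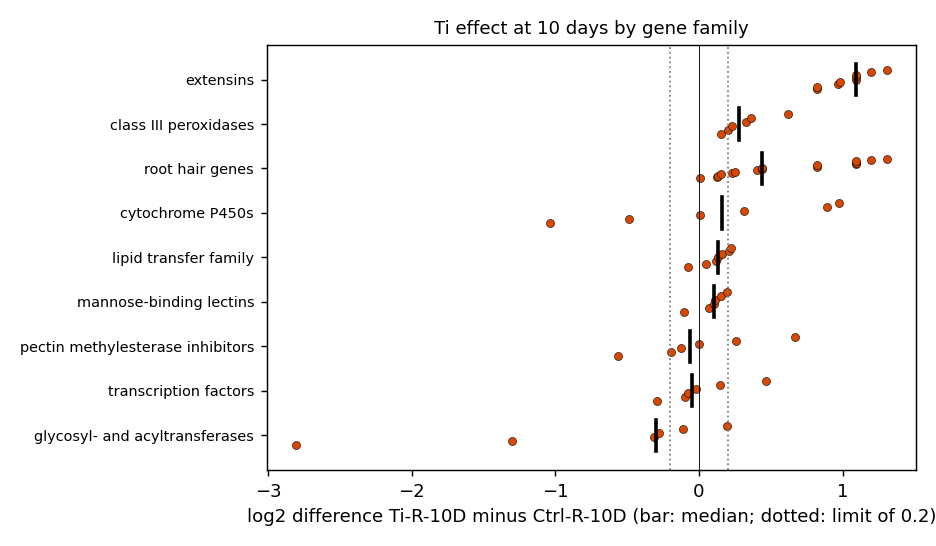
Log2 difference Ti-R-10D minus Ctrl-R-10D of the root-only genes by family, 1 point per gene, with the family median as a black bar and the limit of 0.2 as dotted lines. All 9 extensins lie right of 0.8, all 6 lectins lie within the limit, and the lowest glycosyltransferase lies at -2.80. Genes that belong to several families or lists are drawn in each.

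On the low side at 10 days stood AT2G22590, a UDP-glycosyltransferase gene, which had 41.3 CPM in Ctrl-R-3D, 53.7 in Ti-R-3D, and 11.0 in Ctrl-R-10D against 1.58 in Ti-R-10D. It was 6.98-fold lower with Ti at 10 days and 0.38 higher at 3 days, and its log2 difference of -5.09 between the days in treated roots was the largest of the set. AT5G47980, an acyltransferase gene of the thalianol triterpene cluster, stood at 31.8 CPM in Ctrl-R-3D, 31.2 in Ti-R-3D, and 20.9 in Ctrl-R-10D against 8.51 in Ti-R-10D. CYP735A2 differed by -1.03, with 22.5 CPM in Ti-R-10D against 46.2 CPM in Ctrl-R-10D. In these 3 genes Ti-R-10D stood apart from the 10-day control by more than 2-fold, and none of them shared at least 20% of its words with another locus.

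Of the 6 glycosyl- and acyltransferase genes in the set 4 were lower beyond 0.2 with Ti at 10 days and 0 higher (median -0.30), where 22.3% of the root table was lower. All 267 genes of this family in the root table were even, with 65 higher and 63 lower (median 0.01). AT1G23410, a ubiquitin and ribosomal protein fusion gene, stood at 17.3 CPM in Ctrl-R-10D against 8.62 CPM in Ti-R-10D, but its sum with AT1G23400, the locus that shares its words, differed by -0.22. AT1G14960 (-0.93), EXPA17 (-0.77), which is known from the emergence of lateral roots, AT2G41800 (-0.74) and AT5G10130 (-0.73) followed. EXPA17 was lowest in Ti-R-10D (9.39 CPM, against 16.0 in the control and 45.9 in Ctrl-R-3D). Wall genes stood on both sides at 10 days, 16 of 31 higher and 5 lower, against 23.7% and 22.3% of the root table. Among all 380 wall genes listed for roots, 138 were higher and 88 lower (median 0.06).

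The other families and lists were within the limit or mixed. At 10 days 23.7% of the whole root table was higher and 22.3% lower beyond 0.2. The 6 mannose-binding lectins had 0 genes beyond 0.2 at either day, with differences of -0.11 to 0.19 at 10 days. The lipid transfer family had 2 of 7 genes higher at 10 days, AT4G12545 (0.22) and AT5G46900 (0.21), and 0 lower. AT5G46900 shares 27.1% of its words with AT5G46890, and their sum differed by 0.17, within the limit. The sum of AT4G12545 and AIR1 differed by 0.25. Among 6 transcription factor genes MYB93 (0.46), a known brake on lateral root development, was higher, and AT4G25400 (-0.29) was lower. The terpene list had 4 genes in the set, of which CYP71A16 (0.32) was higher, AT5G47980 and AT5G47950 (-0.28) lower, and PEN1, a triterpene synthase, within 0.2 (0.04). Higher as well were CNGC14 (0.20), a calcium channel of the root response to auxin, and UMAMIT4 (0.34), of a transporter family, while AT3G45700, of the major facilitator transporters, stood at -0.12.

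Genes of photosynthesis, which mark green tissue, were read in the same root samples. Their 10 genes summed to 718 CPM in Ctrl-R-3D, 895 in Ti-R-3D, and 945 in Ctrl-R-10D against 1112 in Ti-R-10D. None stood at 0. With Ti at 3 days 8 of 10 were higher beyond 0.2 and 0 lower, against 8.51% and 8.38% of the root table. At 10 days 5 of 10 were higher and 0 lower, against 23.7% and 22.3%. The part of green tissue in the results above was not tested. Markers of the root cap summed to between 55.7 and 60.6 CPM in the 4 groups, and those of suberin to 823, 828, 617 and 639 CPM in the same order, lower at 10 days at both treatments as the root-only genes were. Vascular markers summed to 356, 378, 346 and 445 CPM. With Ti at 10 days 4 of their 8 genes were higher and 1 was lower, against 23.7% and 22.3% of the root table. The part of these cell types in the results above was not tested.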

How the data were processed

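RNA of 12 root and 12 shoot samples was measured by mRNA sequencing. According to the paper's methods and the submitters' notes, the authors trimmed reads (Trim Galore 0.6.6, FastQC 0.11.9), assigned them to Araport11 transcripts with kallisto 0.44.0, summed them to genes, and dropped genes of low CPM and normalized each tissue on its own in edgeR. What they deposited is log2 CPM per gene, in 3 columns per group; these columns were equal in all rows (0 unequal rows), so the authors' values are 1 per group, and depth is unknown. Transcript suffixes of row names were removed. Differences were taken without a pseudocount, and levels were not compared between tissues.

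The genes and lists were chosen with earlier results of these data known, and the extensin, lectin and pectin methylesterase inhibitor families were added after the members had been seen. Named are the 12 highest genes in Ctrl-R-3D, the 10 largest differences each way between the days in controls, 8 each way with Ti at 10 days and 3 each way at 3 days, list members and the 2 genes on each side of the level limit; the others named were chosen after their values had been seen. A difference between days was called beyond 1 and a Ti effect beyond 0.2. Sequences, names and 31-base words came from the RefSeq annotation of TAIR10.1, 1 transcript model per locus, in which all 157 genes matched; the files carry no coordinates. The planned count of serine-proline runs in proteins was made on coding DNA. Alternatives were level limits of 10 and 50 CPM, 1 CPM added, equal medians, quantile normalization, a filter at 1 CPM, other call limits and the omission of gene groups. Python 3.11.15, numpy 2.4.6, pandas 2.3.3 and matplotlib 3.10.9 were used, and the scripts were tested on simulated data.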

Additional observations from a re-analysis of the deposited data

How the results depend on the processing

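No paired analysis was possible because the 3 columns of a group are equal, and for the same reason no replicate could be left out and no limma fit was made. No share or median of the 157 genes changed sign. With the level limit at 10 CPM (322 genes) the share higher at 10 days in controls was 2.48% and the median -0.47, and at 50 CPM (38 genes) these were 2.63% and -0.71, with a median of -0.57 between the days in Ti-treated roots and 2.63% higher with Ti at 3 days. With calls at 1.5-fold, 4.46% were higher and 51.0% lower between the days in controls, and 5.73% and 35.7% in Ti-treated roots. With calls beyond 0.5, 1.91% were higher and 0% lower with Ti at 3 days, and 10.8% and 7.01% at 10 days. Without the 9 extensins, an alternative chosen after seeing the data, 16.2% were lower between the days in controls and 32.4% higher with Ti at 10 days, and without the 21 genes with a near copy, also chosen then, 20.6% and 36.0%. Equal medians, quantile normalization, 1 CPM added and the filter at 1 CPM moved no share by over 1.5 times. Of 720 values of named genes 711 kept their side of the limit; under quantile normalization the peroxidases AT1G05250 (0.17) and AT1G30870 (0.20) and AT5G46900 (0.19) came within 0.2 with Ti at 10 days. Values of 1 per group carry no error, so differences close to a limit are not settled by these files.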
